A study of Mus musculus with 21 samples.

Results

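The Polycomb group genes followed here are Ezh2, Ezh1, Suz12 and Eed, whose products form the core of Polycomb repressive complex PRC2, and Cbx2, Cbx7, Cbx8, Rnf2 and Bmi1, whose products belong to complex PRC1. They were chosen by name: every probe set whose platform annotation gives 1 of these 9 symbols was taken, which gave 27 of the 45101 probe sets on the array. Of these, 21 probe sets passed a filter on low values (above the 40th percentile of their array on at least 3 of 20 testis arrays), and every one of the 9 genes kept at least 1. Where a gene had several, the probe set with the highest mean stands for it, and the tests ran over 14338 genes each represented in this way.

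The RNA came from testes taken whole from CD-1 mice, which are outbred; all were wild type and male, and no group carried an altered allele or received a treatment. The stages were gd11, gd12, gd14, gd16 and gd18, where gd is the day of gestation, and pnd2, the second postnatal day, which the labels place at Theiler stages 18, 20, 22, 24, 26 and 27. There were 5 arrays at gd11 and 3 at each other stage. The sample labels give pools of 2 at gd11 and pools of 5 at gd12 and none later, while the design text names 3 samples a stage, each from a single animal of its own dam; the sample labels were followed. A further array held a pool of 8 whole newborns of pnd 0.5, 4 male and 4 female, of a strain the labels do not give; its source field nevertheless reads testes, and with 1 array it enters no test.

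Polycomb complexes keep genes silent through histone marks that cells pass on as they divide. PRC2 methylates histone H3 at K27 through 1 of its alternative enzymes, Ezh2 or Ezh1, held in place by Suz12 and Eed. PRC1 adds ubiquitin to histone H2A through Rnf2 or its paralog Ring1, paired with a Pcgf protein such as Bmi1, and Cbx proteins bind the mark left by PRC2. In the gonad, mice without Cbx2 are known to show male-to-female sex reversal, and the fetal germ cells of the testis rebuild much of their chromatin over these days.

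The genes that changed most were a pair of alternative enzymes and a Cbx gene. Ezh2 and Ezh1 moved in opposite directions, and Suz12, their shared partner, followed neither throughout with the probe set that stands for it. For this reason the start-site windows of these 3 genes are printed. Each runs from 250 bases before the annotated start to 30 bases after it, 5′ to 3′ on the gene's strand, from RefSeq on build GRCm38.p6. Capitals mark a match to E2F letters. The windows are Ezh2 at chr6:47595001-47595280 on the minus strand, Ezh1 at chr11:101226434-101226713 on the minus strand and Suz12 at chr11:79992856-79993135 on the plus strand.
Ezh2: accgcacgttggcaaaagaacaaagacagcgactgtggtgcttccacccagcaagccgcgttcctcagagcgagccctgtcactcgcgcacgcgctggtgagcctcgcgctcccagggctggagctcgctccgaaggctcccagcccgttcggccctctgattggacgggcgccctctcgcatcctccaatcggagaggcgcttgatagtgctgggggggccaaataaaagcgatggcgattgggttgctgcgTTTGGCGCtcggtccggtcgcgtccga
Ezh1: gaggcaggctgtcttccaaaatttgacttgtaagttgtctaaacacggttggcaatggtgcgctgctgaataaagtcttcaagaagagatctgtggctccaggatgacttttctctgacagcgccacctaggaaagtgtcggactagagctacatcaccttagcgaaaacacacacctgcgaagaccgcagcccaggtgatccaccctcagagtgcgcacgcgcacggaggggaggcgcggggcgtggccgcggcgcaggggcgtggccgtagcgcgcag
Suz12: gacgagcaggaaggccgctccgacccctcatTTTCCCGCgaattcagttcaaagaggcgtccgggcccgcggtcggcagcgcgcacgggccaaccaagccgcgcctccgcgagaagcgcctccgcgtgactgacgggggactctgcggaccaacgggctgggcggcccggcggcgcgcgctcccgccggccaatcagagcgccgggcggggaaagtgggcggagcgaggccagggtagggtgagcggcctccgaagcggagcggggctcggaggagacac

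The letters searched for E2F, a family of factors that drives cell cycle genes, were TTTCCCGC, TTTGGCGC, TTTGCCGC and TTTCGCGC on both strands, over 250 bases before to 50 after each start. They occurred in 744 of 32851 such windows (2.26%). Of the 8 members with a window in the table, Ezh2 held TTTGGCGC from position 4 after its start and Suz12 held TTTCCCGC from position -219, and Ezh1, Eed, Cbx7, Cbx8, Rnf2 and Bmi1 held none of these letters in the window. The letters CCAAT, on either strand, occurred in 37.4% of all windows and in 5 of the 8 members' windows, with 3 matches in that of Ezh2. A match describes the letters and does not show that a factor binds there. Each E2F word searched holds the letters CG. The windows of the 8 members hold from 17 (Eed) to 41 (Suz12) CG pairs, 31 in Ezh2, beside a median of 7 over all windows. The share of 2.26% is not matched for this, so the members' matches cannot be read against it. Cbx2 was not analysed here for its start site.

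Across the 6 stages, 8 of the 9 genes varied (limma's moderated F-test, Benjamini-Hochberg adjusted p below 0.05), where 68.3% of all genes tested did. Ezh2, Cbx2, Ezh1 and Cbx7 varied and also spanned 2-fold or more from the lowest to the highest stage, against 32.5% of all genes. Bmi1 did not pass (adjusted p = 0.130 in limma). Values are array intensities on a linear scale with arbitrary units, changes are differences in log2(intensity + 22.4), which understate the change of dim genes, and every adjusted p of a stage comparison is from limma over all genes. Near background means an intensity under 71.6, which 40% of all values on the testis arrays are. Intensities of different probe sets are not set against each other, since each has its own brightness.

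**Figure D1:**
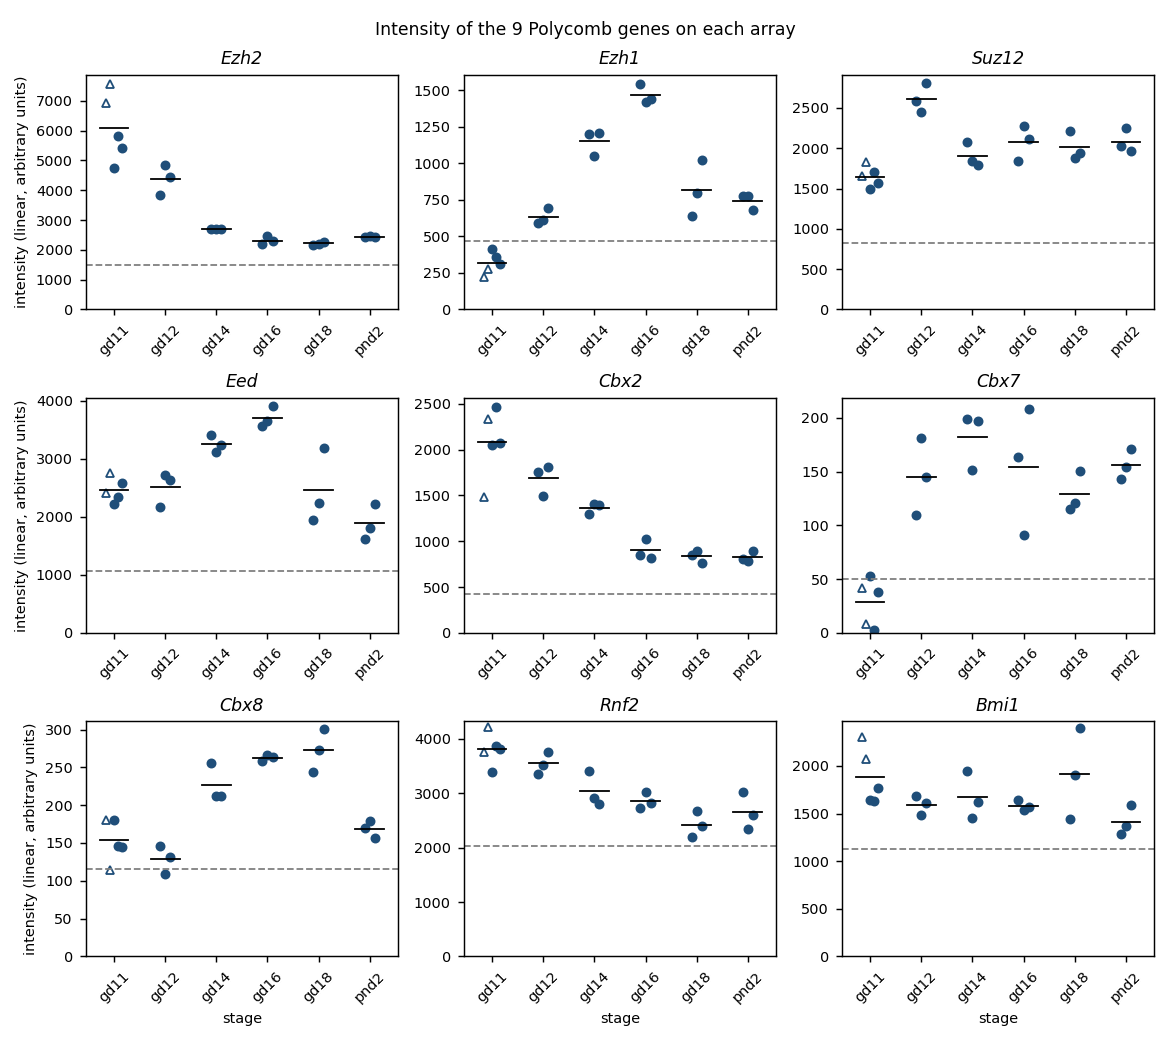
Intensity of each Polycomb gene on each testis array (linear y axes from 0, arbitrary units) over the 6 stages, with black bars at stage means; open triangles are gd11 replicates 16 and 17 and the dashed line is the whole-newborn array. Ezh2 and Cbx2 are highest at gd11 and Ezh1 at gd16, and the Ezh1 values at gd16 (1420 to 1540) lie above those of every other stage.

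Facts of the arrays that bear on these values come first. The deposited intensities had been scaled so that the trimmed mean of each array, leaving out 2% of values on each side, was 500.00 on all 21 arrays. For RNA integrity, the 3'/5' ratio of the beta-actin control ran from 1.19 to 1.29 on the gd11 arrays and from 1.27 to 1.42 on the later ones, and that of Gapdh from 0.72 to 0.81 and from 0.67 to 0.78. The tissue label at pnd2 held against its markers: 10 of 11 Sertoli cell markers were higher there than at gd11, as were 24.2% of all genes. Their summed intensity was 2039 to 3759 at gd11 and 107800 to 122000 at pnd2. This rise does not check the label at gd11, where these markers were low. At gd11 replicates 16 and 17 stood apart, with a summed intensity of 79800 and 46300 over 12 measured neural markers of 14 listed, against 4530 to 9589 on the other 3 gd11 arrays and 1252 to 4129 later; no measured neural marker was near background at all stages. Many results that rest on gd11 are therefore also given without them, though not all. In whole tissue, fewer cells of a type and less RNA per cell cannot be told apart.

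Ezh2, the PRC2 methyltransferase known for its high level in dividing cells, was most abundant at gd11 and fell until gd14. Its intensity at gd11 was 6937, 7574, 4745, 5806 and 5420 in replicates 16 to 20, with a mean of 6096 ± 1146 (SD, n = 5). At gd12 it was 3837, 4830 and 4442, and at gd14 it was 2709, 2683 and 2691. The lowest gd11 array (4745) was below the highest gd12 array (4830), so these stages overlapped, while every gd14 array was below every gd12 array. From gd16 to pnd2 all 9 arrays lay between 2177 and 2464. Ezh2 fell by 0.46 ± 0.11 (SE) on the log2 scale from gd11 to gd12 (adjusted p = 0.00677) and by 0.69 ± 0.13 from gd12 to gd14 (adjusted p = 0.000980). No later step passed the test. Over the whole course the log2 change from gd11 to pnd2 was -1.29 ± 0.11 (adjusted p = 2.27e-08).

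The 2 arrays with neural RNA had the highest Ezh2 values of all. Without them the change from gd11 to gd12 was -0.28 (adjusted p = 0.0301) and that from gd11 to pnd2 was -1.11 (adjusted p = 5.48e-09) for Ezh2. The fall between gd11 and gd12 did not pass when only the arrays of those stages entered the fit (Ezh2 adjusted p = 0.0887).

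Cell division genes, a list that holds Mki67 and Top2a, fell beside Ezh2 from gd12 to gd14 but not from gd11 to gd12. Of 30 listed, 29 were measured and none was near background at all stages. From gd12 to gd14, 18 were lower, none was higher and 11 did not pass, where 7.34% of all genes were lower and 11.4% higher. From gd11 to gd12, where Ezh2 had already fallen, 3 were higher and 2 lower (17.2% called, against 21.4% of all genes). Their median change in that step was 0.11. Their summed intensity was 125400 to 146500 at gd11, 124200 to 152500 at gd12, 105100 to 106900 at gd14 and 97870 to 111900 at pnd2. Their part in the fall of Ezh2 was not tested.

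Ezh1, the alternative methyltransferase often found in cells that divide little, took another course: it rose from gd11 to gd14, had its highest mean at gd16 and then fell. At gd11 its intensity was 219, 275, 414, 358 and 311 in replicates 16 to 20, a mean of 315 ± 75.0 (SD, n = 5). At gd12 the arrays read 592, 612 and 693, at gd14 1197, 1046 and 1208, and at gd16 1540, 1420 and 1438. These 4 stages did not overlap, each being above the one before. At gd18 the arrays were spread, at 636, 797 and 1023, and at pnd2 they read 774, 774 and 677. The rise was 0.98 ± 0.16 (log2) from gd11 to gd12 (adjusted p = 0.000294) and 0.84 ± 0.18 from gd12 to gd14 (adjusted p = 0.00304), and the step from gd14 to gd16 was 0.35 ± 0.18 (adjusted p = 0.243), so that gd14 and gd16 are not ordered by the test. With the mean of all Ezh1 probe sets this step was -0.11 (adjusted p = 0.804). Ezh1 then fell by 0.85 ± 0.18 from gd16 to gd18 (adjusted p = 0.0106). At pnd2 it was still 1.21 ± 0.16 (log2) above gd11 (adjusted p = 5.18e-06), a call that held without the arrays rich in neural markers (adjusted p = 1.05e-05).

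The fall of Ezh1 from gd16 to gd18 depended on the probe set rule and on gd18 replicate 4, the lowest of its stage. With the mean of all Ezh1 probe sets the change was -0.30 (adjusted p = 0.539). Without replicate 4 it was -0.69 (adjusted p = 0.0844). The second bright Ezh1 probe set, 1418290_a_at, gave 0.75 ± 0.20 from gd11 to gd12 (adjusted p = 0.0133), 1.34 ± 0.22 from gd12 to gd14 (adjusted p = 0.000476) and 1.13 ± 0.20 from gd11 to pnd2 (adjusted p = 0.000127) in limma over 26713 probe sets. For the step from gd16 to gd18 it gave -0.69 ± 0.22 (adjusted p = 0.100). Another, 1429629_at, varied over the stages as well (adjusted p = 0.00887) and read 28.6 at gd11, 124 at gd14, 119 at gd16 and 55.1 at pnd2. The remaining one, 1429630_at, stayed between 13.6 and 42.2, near background at each stage.

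Markers of both fetal Leydig cells and germ cells were highest in the middle of the course, as Ezh1 was. Of 7 fetal Leydig cell markers, the genes of the cells that make androgen, 6 were measured, none near background at all stages. Their summed intensity was 143 to 598 at gd11, 1056 to 4170 at gd12, 37030 to 41900 at gd14, 55320 to 70610 at gd16, 32990 to 49240 at gd18 and 18930 to 23400 at pnd2, with the highest arrays at gd16. Of 10 germ cell markers listed, 9 were measured, none near background at all stages. Their summed intensity was 1368 to 3788 at gd11, 9659 to 33590 at gd12, 51900 to 61340 at gd14, 25530 to 32370 at gd16, 13040 to 23980 at gd18 and 9104 to 13150 at pnd2. Every gd14 array was thus above the arrays of the other stages. Among the gd18 arrays, replicate 6 had the highest Ezh1 value (1023) and the highest germ cell marker sum (23980, against 13040 and 14350). It also had the highest sum of 10 macrophage and leukocyte markers (6541, against 3510 and 4328). Its fetal Leydig marker sum was the lowest (32990, against 35400 and 49240). By mean log2, however, replicate 4 was the lowest for these Leydig markers (11.79, against 11.84 in replicate 6). The part of these cell types in the level of Ezh1 was not tested.

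**Figure D2:**
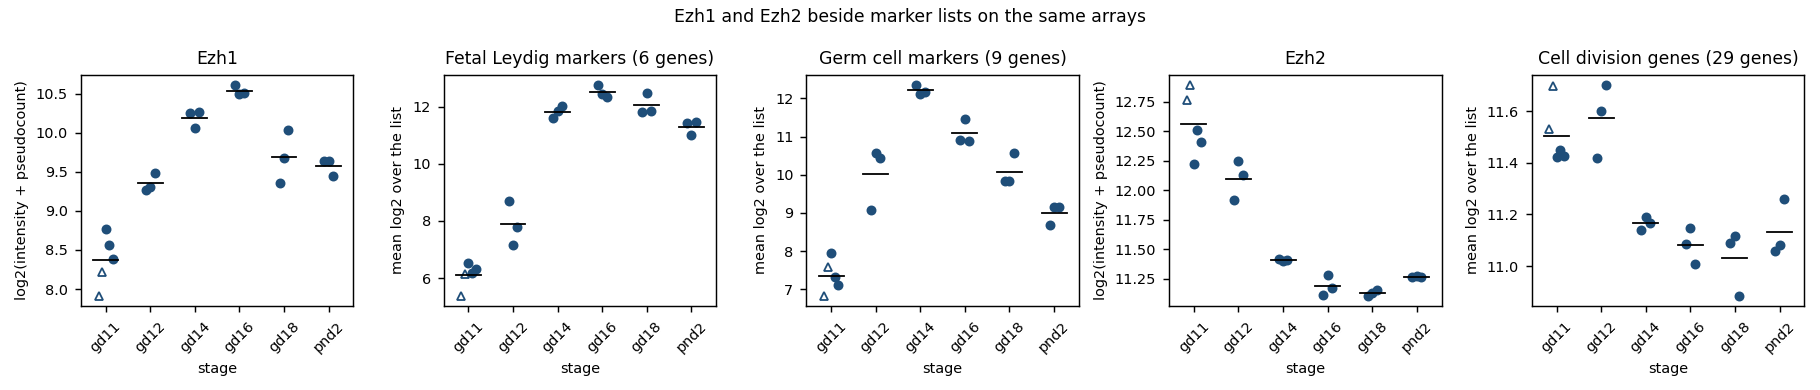
Ezh1, fetal Leydig markers (mean of 6 genes), germ cell markers (mean of 9 genes), Ezh2 and cell division genes (mean of 29 genes) on each array, as log2(intensity + 22.4); black bars are stage means and open triangles gd11 replicates 16 and 17. Ezh1 and the fetal Leydig markers have their highest mean at gd16 and the germ cell markers at gd14, and Ezh2 has its step down by gd14, the stage at which 18 cell division genes are lower than at gd12.

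Suz12, the zinc finger subunit that PRC2 needs to be stable, had its highest value at gd12. Its intensity was 1660, 1823, 1489, 1701 and 1569 at gd11, 2588, 2445 and 2814 at gd12 and 2077, 1843 and 1787 at gd14. Every gd12 array was above every array of the other 5 stages, whose highest was 2276. Suz12 rose by 0.66 ± 0.09 (log2) from gd11 to gd12 (adjusted p = 6.51e-05) and fell by 0.46 ± 0.10 from gd12 to gd14 (adjusted p = 0.00457). Later stages ranged from 1835 to 2276, and at pnd2 the gene was 0.33 ± 0.09 (log2) above gd11 (adjusted p = 0.00597).

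The peak of Suz12 was seen with this probe set, 1420021_s_at, and not with the next brightest. Probe sets 1427253_s_at and 1452364_at rose from gd11 to gd12 by 0.37 ± 0.11 and 0.44 ± 0.10 (adjusted p = 0.0203 and 0.00361), and from gd12 to gd14 gave -0.08 ± 0.12 and -0.17 ± 0.11 (adjusted p = 0.728 and 0.321). They were highest at pnd2, 0.68 ± 0.11 and 0.60 ± 0.10 above gd11 (adjusted p = 3.13e-05 and 4.69e-05). The dimmer 1449661_at rose from gd11 to gd12 as well (0.58 ± 0.19, adjusted p = 0.0372), and 1420022_s_at varied with no call over the stages (adjusted p = 0.579). With 1420022_s_at, the probe set of largest variance, standing for the gene, the changes were 0.26 from gd11 to gd12 (adjusted p = 0.493), 0.11 from gd12 to gd14 (adjusted p = 0.834) and 0.05 from gd11 to pnd2 (adjusted p = 0.881), so that no Suz12 call remained among these. From gd11 to pnd2 1449661_at gave -0.02 ± 0.19 (adjusted p = 0.936). A rise from gd11 to gd12 was thus called for 4 of the 5 Suz12 probe sets that passed the filter, against 18.9% of all probe sets called in either direction, and the later fall for 1 of 5, against 15.4%. These probe sets read transcripts of 1 gene and may share sequence, so they are not replicates.

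Eed, the subunit that binds the H3K27 mark and stimulates the enzyme, was highest at gd16. It read 2419, 2759, 2221, 2349 and 2580 at gd11, 2165, 2728 and 2636 at gd12, 3417, 3112 and 3233 at gd14 and 3573, 3658 and 3909 at gd16. The gd14 and gd16 arrays were all above those of gd11 and gd12. From gd11 to gd14 Eed rose by 0.40 ± 0.13 (log2, adjusted p = 0.0183) and from gd11 to gd16 by 0.59 ± 0.13 (adjusted p = 0.00104). It fell by 0.62 ± 0.15 from gd16 to gd18 (adjusted p = 0.0193), where the arrays read 1952, 2240 and 3189, and replicate 6 was again the highest. At pnd2 it read 1627, 1817 and 2221, 0.39 ± 0.13 below gd11 (adjusted p = 0.0189).

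These Eed calls near the end of the course were fragile. The fall from gd16 to gd18 did not pass without gd18 replicate 4 (-0.47, adjusted p = 0.135), gd18 replicate 5 (-0.57, 0.0851), gd16 replicate 8 (-0.63, 0.0765) or gd16 replicate 9 (-0.58, 0.0657). The difference of Eed between pnd2 and gd11 did not pass without pnd2 replicate 1 (-0.29, adjusted p = 0.124), pnd2 replicate 2 (-0.37, 0.0633) or both gd11 replicates 16 and 17 (-0.34, 0.0580). Without gd18 replicate 6 the rise of Eed from gd12 to gd14, 0.38, passed (adjusted p = 0.0287), where with all arrays it did not (0.0786). The second Eed probe set, 1453830_at, did not pass the filter.

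Among the PRC1 genes, Cbx2 fell from gd11 to gd16. Its intensity was 1481, 2330, 2051, 2462 and 2075 at gd11, 1757, 1495 and 1813 at gd12, 1296, 1410 and 1398 at gd14 and 854, 1024 and 822 at gd16. The gd18 and pnd2 arrays read 760 to 893 and 788 to 894. Replicate 16 was the low one at gd11 and below every gd12 array. The change from gd14 to gd16 was -0.60 ± 0.15 (log2, adjusted p = 0.0146), and the whole change from gd11 to pnd2 was -1.28 ± 0.13 (adjusted p = 1.54e-07). The first steps, -0.28 ± 0.13 to gd12 and -0.30 ± 0.15 from there to gd14, did not pass (adjusted p = 0.133 and 0.174).

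Without gd11 replicate 16 the step of Cbx2 from gd11 to gd12 passed (-0.40, adjusted p = 0.0103), and without gd16 replicate 7 or 9 that from gd14 to gd16 did not (-0.56, 0.0636, and -0.54, 0.0783). The dimmer Cbx2 probe set, 1422059_at, fell from gd11 to pnd2 by 0.99 ± 0.18 (adjusted p = 0.000155). It gave -0.01 ± 0.20 from gd12 to gd14 (adjusted p = 0.983) and -0.59 ± 0.20 from gd14 to gd16, which did not pass (adjusted p = 0.0825).

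Cbx7, a Cbx paralog known to repress the Ink4/Arf locus, was near background on all 5 gd11 arrays, at 41.9, 8.63, 53.3, 3.16 and 38.5. At gd12 it read 110, 181.1 and 145, and from gd14 to pnd2 it stayed between 90.8 and 208. All 15 later arrays were above all gd11 arrays. Cbx7 rose by 1.81 ± 0.32 (log2) from gd11 to gd12 (adjusted p = 0.000517), and its level at pnd2 was 1.92 ± 0.32 above gd11 (adjusted p = 5.95e-05). Since the gd11 level is near background, these are better read as bounds: set against 71.6 for each gd11 array, gd12 was at least 1.99-fold and pnd2 at least 2.17-fold higher. No step after gd12 passed the test. Its other 2 probe sets did not pass the filter.

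Cbx8, a further Cbx paralog that carries PRC1 to chromatin, was higher in the middle of the course than at either end. It read 180, 115, 181, 147 and 145 at gd11, 146, 109 and 131 at gd12, and 255, 212 and 213 at gd14. The gd16 arrays lay between 258 and 267 and the gd18 arrays between 244 and 301, and at pnd2 Cbx8 was back at 169, 179 and 156. It rose by 0.73 ± 0.17 (log2) from gd12 to gd14 (adjusted p = 0.00623) and fell by 0.63 ± 0.17 from gd18 to pnd2 (adjusted p = 0.0322), so that pnd2 and gd11 differed by 0.13 ± 0.15 (adjusted p = 0.515). The last fall did not pass without any 1 of the 3 pnd2 arrays, or gd18 replicate 5 or 6 (Cbx8 adjusted p from 0.0656 to 0.126).

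Rnf2, the main ubiquitin ligase of PRC1, drifted down over the course with no single step past the test. It read 3754, 4212, 3394, 3872 and 3810 at gd11, 3361 to 3766 at gd12, 2811 to 3407 at gd14, 2721 to 3020 at gd16, 2197 to 2681 at gd18 and 3025, 2338 and 2593 at pnd2. Every pnd2 array was below every gd11 array. The change from gd11 to pnd2 was -0.52 ± 0.10 (log2, adjusted p = 0.000156), and the second bright Rnf2 probe set, 1451519_at, gave -0.34 ± 0.08 (adjusted p = 0.00275). With the mean of all probe sets of the gene, 2 of which are dim, the change was -0.23 (adjusted p = 0.160). Of the dim ones, 1448042_s_at went the other way (0.55 ± 0.27, adjusted p = 0.102). With the other, 1448043_x_at, which has the largest variance, standing for Rnf2, the change was -0.63 (adjusted p = 0.268).

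Bmi1, the Pcgf partner of Rnf2 best known for sustaining stem cells, was the flattest of the 9. Its stage means ran from 1412 ± 156 (SD, n = 3) at pnd2 to 1915 ± 483 (SD, n = 3) at gd18. The gd11 arrays read 2306, 2077, 1647, 1632 and 1765, with the arrays holding neural RNA highest, the gd18 arrays 1438, 1904 and 2404, and the pnd2 arrays 1282, 1369 and 1585. Bmi1 was 0.40 ± 0.14 (log2) lower at pnd2 than at gd11 (adjusted p = 0.0264), the only pair of stages called for it. That call was lost without gd11 replicate 16 (-0.33, adjusted p = 0.0588) or 17 (-0.37, 0.0564), without both (-0.25, 0.155), and without pnd2 replicate 1 (-0.34, 0.115) or 2 (-0.38, 0.0780). Without gd18 replicate 4 the step of Bmi1 from gd18 to pnd2 passed (-0.60, adjusted p = 0.0344).

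The other Bmi1 probe set showed a larger change. Its intensity (1448733_at) fell from 1077 ± 180 (SD, n = 5) at gd11 to 484 ± 79.1 (SD, n = 3) at pnd2, a log2 change of -1.11 ± 0.17 (adjusted p = 2.63e-05), and it varied over the stages (adjusted p = 0.000207). The probe sets of Bmi1 thus shared the direction and differed in size, and which transcripts each one reads was not analysed here.

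**Figure D3:**
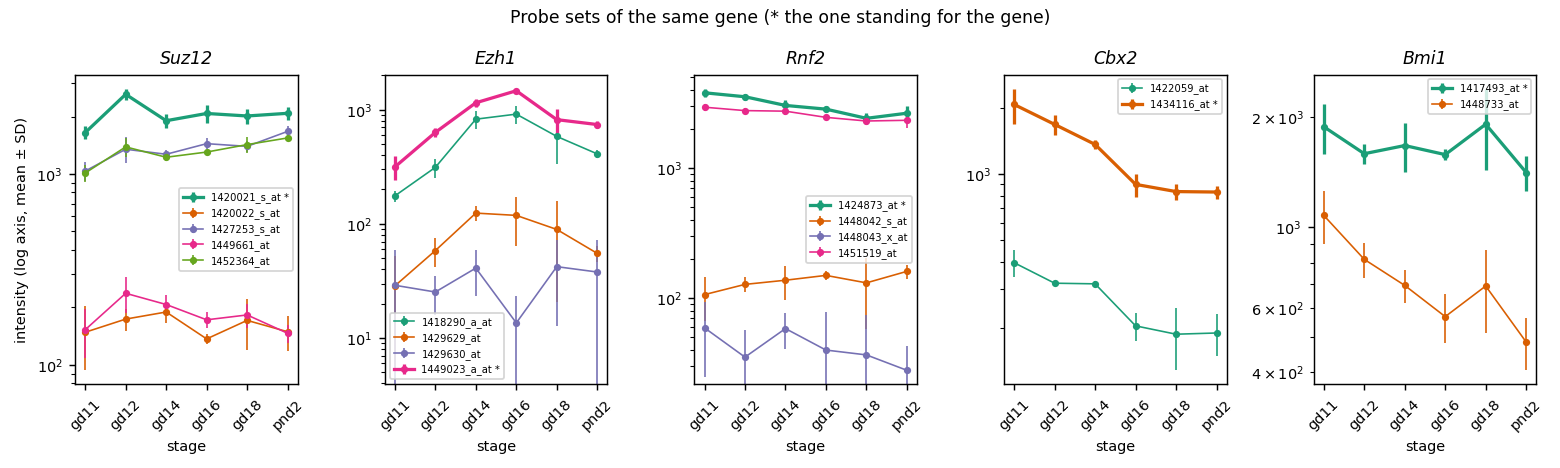
Mean intensity (log y axes, arbitrary units, ± SD; n = 5 at gd11 and 3 at each other stage) of every probe set that passed the filter for the 5 genes with several; the thick line and * mark the one standing for the gene. The bright Ezh1 and Rnf2 probe sets and both Cbx2 probe sets share their direction from gd11 to pnd2, though not the size of each step. Of the 3 bright Suz12 probe sets 1 peaks at gd12, and the second Bmi1 probe set falls from 1077 to 484.

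Stage by stage, Ezh2, Ezh1 and Suz12 were each called in both of the first 2 steps. From gd11 to gd12, 4 of the 9 genes were called (Cbx7, Ezh1 and Suz12 higher, Ezh2 lower), where 21.4% of all genes were, 11.2% higher and 10.2% lower. From gd12 to gd14 there were again 4 (Ezh1 and Cbx8 higher, Ezh2 and Suz12 lower), against 18.7%, of which 11.4% higher and 7.34% lower. From gd14 to gd16 only Cbx2 was called, against 10.4%, from gd16 to gd18 Ezh1 and Eed, against 4.88%, and from gd18 to pnd2 Cbx8, against 7.80%. Between the ends of the course, gd11 and pnd2, 8 of 9 were called, 3 higher (Cbx7, Ezh1, Suz12) and 5 lower (Ezh2, Cbx2, Rnf2, Bmi1, Eed), against 48.6% of all genes, 24.2% higher and 24.4% lower. The median change of the 9 was -0.39, beside -0.03 over all genes tested.

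Without gd11 replicates 16 and 17, the arrays rich in neural markers, 5 of the 9 were called from gd11 to gd12. Cbx2 joined the 4 (-0.37, adjusted p = 0.0225 in limma). Between gd11 and pnd2, 6 were called, Eed and Bmi1 having dropped out, against 47.2% of all genes. The median change of the 9 was then -0.25. From gd11 to pnd2 the changes were then -1.38 for Cbx2, 1.86 for Cbx7, 0.39 for Suz12 and -0.48 for Rnf2, and from gd11 to gd12 they were 1.75 for Cbx7, 0.78 for Ezh1 and 0.71 for Suz12. Each of these was still called.

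In the order of stage means, few neighbours differed. For Ezh2 the order was gd11, gd12, gd14, pnd2, gd16 and gd18, and only the first 2 gaps were called. Among the last 4 stages no pair was called for Ezh2, although every gd14 array was above every later one and every pnd2 array above every gd18 array. For Ezh1, from gd16 down through gd14, gd18, pnd2 and gd12 to gd11, the gaps from gd14 to gd18 (0.50 ± 0.18, adjusted p = 0.0463) and from gd12 to gd11 were called. For Suz12 only the gap from gd12 to the next, pnd2, was called (0.33 ± 0.10, adjusted p = 0.0192), for Cbx2 only that from gd14 to gd16 and for Cbx7 only that from gd18 to gd11 (1.67 ± 0.32, adjusted p = 0.000259). For Eed, Cbx8, Rnf2 and Bmi1 no neighbours were called, although 9, 8, 8 and 1 of all 15 pairs of stages were. Ezh1 had the most pairs called, 11 of 15, followed by Cbx2 with 10 and Ezh2 with 9.

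Paralogs that can fill the same place in a complex changed unequally. The log2 difference of Ezh1 and Ezh2 within each array was -4.19 ± 0.57 (SD, n = 5) at gd11, -0.65 ± 0.14 (SD, n = 3) at gd16 and -1.69 ± 0.11 (SD, n = 3) at pnd2. These are differences between probe sets, so only their change has a meaning. From gd11 to pnd2 it shifted by 2.50 towards Ezh1 (exact permutation test, two-sided, p = 0.0179, adjusted p = 0.0223 over 5 pairs), and the groups did not overlap (-4.85 to -3.45 and -1.81 to -1.62). This p is the smallest that the 56 splits of 5 and 3 arrays can give. Every pnd2 array was above every gd11 array for Ezh1 and below it for Ezh2, so this p was fixed in advance. It adds no support to the calls of Ezh1 and Ezh2 themselves.

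The same test gave a shift of 3.20 towards Cbx7 against Cbx2, with Cbx7 near background at gd11, and of 1.41 towards Cbx8 against Cbx2 (exact p = 0.0179, adjusted p = 0.0223 for each). Rnf2 moved by -0.93 against Ring1 (exact p = 0.0179, adjusted p = 0.0223). Ring1 itself rose by 0.41 ± 0.15 from gd11 to pnd2 (adjusted p = 0.0308) while Rnf2 fell. Bmi1 against Pcgf2, another Pcgf gene, shifted by -0.11 (exact p = 0.607), with -0.29 ± 0.18 for Pcgf2 from gd11 to pnd2 (adjusted p = 0.186). The last value depended on the Bmi1 probe set: with the probe sets of largest variance the shift was -1.07 (exact permutation test, adjusted p = 0.0223). Under that choice Rnf2 against Ring1 gave -1.04 (adjusted p = 0.0536), and with means over probe sets -0.65 (adjusted p = 0.0714). These shifts share arrays, and those with Cbx2 share a gene. Cbx7 and Cbx2, and likewise Rnf2 and Ring1, each separated all gd11 from all pnd2 arrays in opposite directions. The exact p of these pairs was thus fixed in advance too, and adds no support to the calls of their genes.

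**Figure D4:**
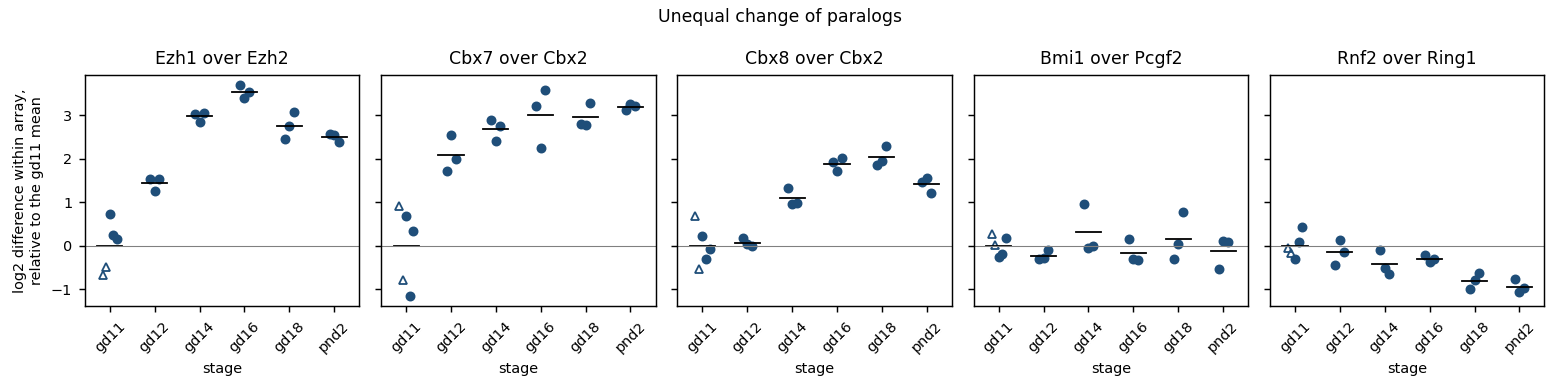
Log2 difference between paralogs within each array, relative to the mean of the gd11 arrays (y axis) over the 6 stages; black bars are stage means and open triangles gd11 replicates 16 and 17. Ezh1 over Ezh2 is highest at gd16 and 2.50 above gd11 at pnd2. Bmi1 over Pcgf2 is spread from -0.53 (pnd2 replicate 1) to 0.97 (gd14 replicate 10), with a shift of -0.11 from gd11 to pnd2.

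The other genes of the complexes moved in both directions between gd11 and pnd2. Of 25 further PRC1 genes listed, 23 were measured, and 6 were higher, 8 lower and 9 not called, with a median change of -0.07; over all genes 48.6% were called, 24.2% higher and 24.4% lower, with a median of -0.03. Scml2, a germline Polycomb protein, went from 137 to 1308 (3.07 ± 0.27, adjusted p = 1.93e-08). Pcgf5 went from 227 to 1432 (2.57 ± 0.32, adjusted p = 2.27e-06) and Fbrsl1 from 346 to 813 (1.20 ± 0.16). Phc2, a polyhomeotic subunit that lets PRC1 cluster, fell by 0.95 ± 0.10, Auts2 by 0.82 ± 0.17 and Yaf2 by 0.78 ± 0.10. Scml2 had its largest step from gd12 to gd14 (1.95 ± 0.30, adjusted p = 0.000169 in limma). Between these stages 7 of 9 germ cell markers were higher and none lower, where 11.4% of all genes were higher and 7.34% lower. The part of germ cells was not tested.

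All 10 listed PRC2 accessory genes were measured, with 2 higher, 5 lower and 3 not called, and a median of -0.32, against 48.6% of all genes called. The higher ones were Phf19 (0.63 ± 0.17) and Aebp2 (0.40 ± 0.09). Lcor fell by 1.40 ± 0.15, Jarid2, which helps PRC2 reach its targets, by 1.08 ± 0.11. Epop, near background on 2 of 3 pnd2 arrays, was at least 1.99-fold lower (adjusted p = 0.0351), and without gd11 replicates 16 and 17 its change was -0.58 (adjusted p = 0.224). Jarid2 went from 3438 to 1608 (adjusted p = 2.16e-07), the same direction as Ezh2.

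Of 13 genes of the deubiquitinase complex PR-DUB and of PhoRC, the complex with DNA-binding Yy1, 12 were measured, with 2 higher, 7 lower and 3 not called and a median of -0.29, against 48.6% of all genes called. The higher ones were both Sfmbt genes of PhoRC, Sfmbt2 (1.49 ± 0.18, adjusted p = 1.11e-06) and Sfmbt1 (0.78 ± 0.20). Asxl3 fell by 1.86 ± 0.21, Mbd6 by 0.47 ± 0.14 and Asxl1 by 0.45 ± 0.10. With the probe set of largest variance or the mean over probe sets the count fell to 5, 2 higher and 3 lower.

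Genes that oppose Polycomb were called about as often as all genes: of 20 listed Trithorax and H3K27 demethylase genes 19 were measured, 3 higher, 5 lower and 11 not called (42.1% called, against 48.6% of all genes), with a median of -0.15. Wdr5 (0.44 ± 0.09), Kmt2c (0.43 ± 0.14) and Setd1a (0.43 ± 0.14) rose; without gd11 replicates 16 and 17 Setd1a did not pass (0.33, adjusted p = 0.0822). Kdm6b, a demethylase that removes the PRC2 mark, fell by 1.02 ± 0.14 (adjusted p = 9.02e-06), the Y-linked Uty by 0.68 ± 0.22 and Men1 by 0.64 ± 0.10.

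**Figure D5:**
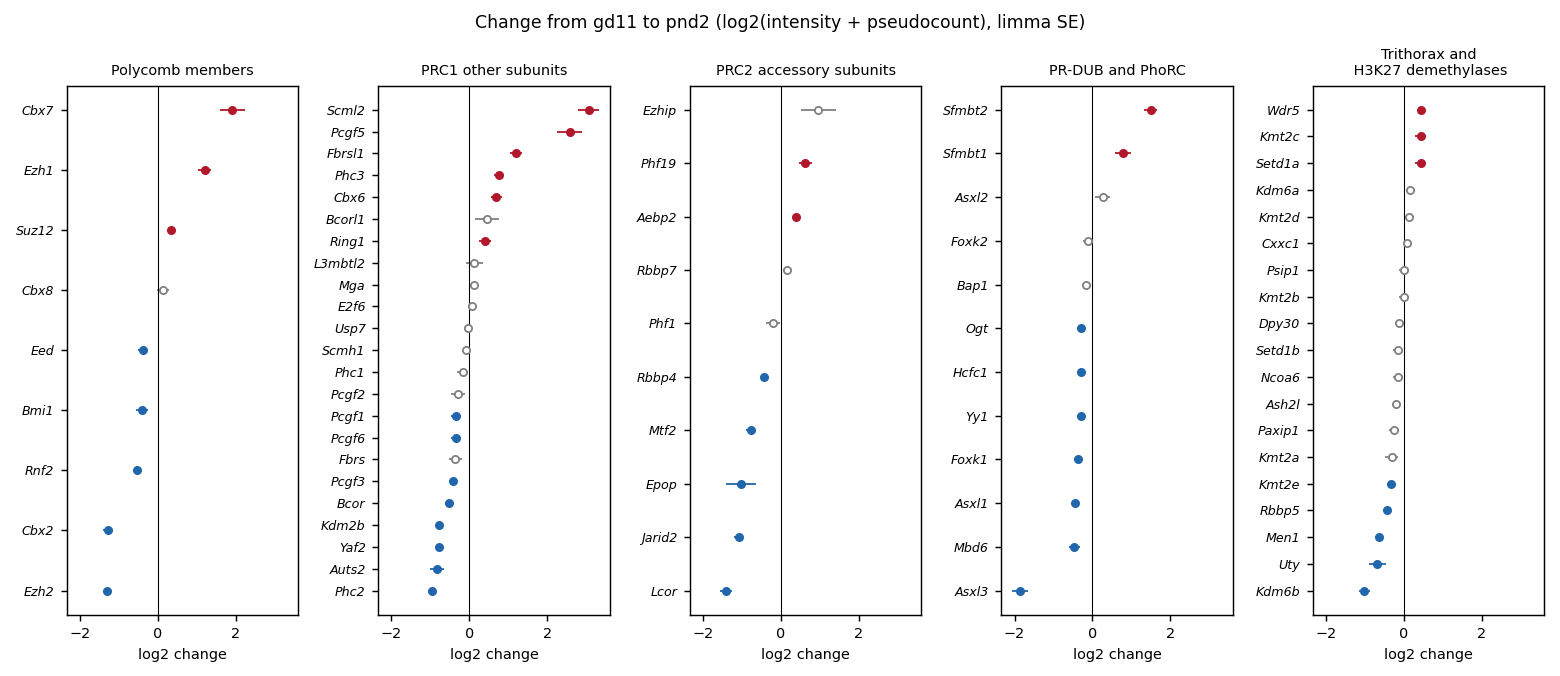
Log2 change from gd11 to pnd2 (x axis, bars are limma's SE) for the 9 Polycomb genes and for the 4 lists of related genes, each sorted by change; filled points passed adjusted p below 0.05 (red higher, blue lower) and open grey points did not. Cbx7 (1.92) and Ezh1 (1.21) rise and Ezh2 (-1.29) and Cbx2 (-1.28) fall, and each list has genes on both sides.

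Genes long known as Polycomb targets were looked at beside them. Of 7 Ink4/Arf and related cell cycle inhibitors, 3 rose and 2 fell from gd11 to pnd2, where 24.2% of all genes were higher and 24.4% lower. Cdkn2c, which is not at the Ink4/Arf locus, went from 189 to 1483 (2.87 ± 0.20, adjusted p = 1.05e-09). Cdkn2a and Cdkn2b, which form that locus, rose by 1.20 ± 0.28 and 1.12 ± 0.28 (adjusted p = 0.00136 and 0.00294), but were near background on all 5 gd11 arrays, so that pnd2 was at least 1.42-fold and 1.10-fold higher. Cdkn1c, an imprinted inhibitor, fell by 2.41 ± 0.21 and Cdkn1a by 1.60 ± 0.27.

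Of 39 Hox genes listed, which set position along the body axis, 29 were measured, and 21 were lower, 1 (Hoxd8, 0.44 ± 0.15) higher and 7 not called, with a median of -2.40, where 24.4% of all genes were lower. The arrays rich in neural markers also had the highest Hox sums, 47150 and 34750 against 23420 to 29620 on the other gd11 arrays. Without them 20 Hox genes were lower and 3 higher, with a median of -1.82. Hoxa9 went from 4323 to 98.7 (-4.95 ± 0.43), Hoxa5 from 2372 to 62.2, near background on 2 of 3 pnd2 arrays and hence at least 31.7-fold lower, and Hoxb6 from 1165 to 42.0, near background on all pnd2 arrays and hence at least 15.9-fold lower. Without gd11 replicates 16 and 17 the change of Hoxa9 was -4.31. Mesonephros and duct markers moved the same way, with 5 of 7 measured lower and 1 higher and a median of -2.83, as did neural markers, with 9 of 12 lower; the part of these tissues was not tested.

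Gonadal and germline genes changed over the same interval. Of 9 gonadal transcription factors, 4 were higher and 2 lower, where 24.2% and 24.4% of all genes were: Dmrt1 (4.34 ± 0.30), Gata4 (2.55 ± 0.32) and Nr5a1 (2.55 ± 0.28) rose and Emx2 (-3.65 ± 0.37) and Sry (-2.68 ± 0.45, near background on all pnd2 arrays and hence at least 4.32-fold lower) fell. At gd11 replicate 16 was the lowest array for these factors, with a summed intensity of 4446 against 10530 to 15930 on the other 4. Without replicates 16 and 17, 5 factors were higher and 3 lower, with 2.12 for Gata4, 2.44 for Nr5a1, 4.23 for Dmrt1 and -4.24 for Emx2. Of 11 genes of meiosis entry, a set that PRC1 is known to hold back in germ cells, 9 were higher and none lower, with a median of 2.81. Taf7l rose by 3.29 ± 0.42, Syce1 by 3.13 ± 0.33 and Sycp1 by 3.01 ± 0.34; the latter pair were near background on all gd11 arrays, so that pnd2 was at least 5.69-fold and 5.00-fold higher. Germ cell markers were 5 higher and 2 lower of 9 over this interval. The meiosis entry genes did not rise steadily: their summed intensity was 239 to 586 at gd11, 5455 to 6875 at gd14 and 2851 to 4395 at pnd2. The germ cell marker sum was also highest at gd14 (51900 to 61340, against 9104 to 13150 at pnd2). The part of germ cells in these changes was not tested.

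For the 4 genes that varied at least 2-fold, the genes with the most similar course were sought by Pearson's r over the 6 stage means, among 4660 genes that also varied at least 2-fold. Nearest to Ezh2 were Synpr (r = 0.999), E2f3 (0.996) and Hoxa2 (0.994). Nearest to Ezh1 were Taf4b (0.992), Stag3 (0.985) and Gpat2 (0.984). Nearest to Cbx2 were Hic2 (0.994), Ap1s3 (0.993) and Snn (0.992), and nearest to Cbx7 were Tmem117 (0.995), Pdzd2 (0.992) and Il17rb (0.992). With 6 points and 4660 genes searched, values near 1 describe the course only, and all points share the same arrays. The gd11 means include replicates 16 and 17, which had the highest Ezh2 values and Hox sums, and no search without them is given here.

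Against the whole-newborn array, 6 of the 9 genes were higher on all 20 testis arrays (Cbx2, Ezh2, Suz12, Eed, Rnf2 and Bmi1), where 27.4% of all genes were. Cbx8 was higher on 18, Cbx7 on 16 and Ezh1 on 15, the exceptions of Ezh1 being the 5 gd11 arrays. The pnd2 mean lay above the newborn array for each gene, by 1.31 (log2) for Suz12 down to 0.37 for Rnf2 and 0.31 for Bmi1. The median over all genes was 0.11, so most genes also lay above that array, and their share is not given here. Cbx7 read 49.7 on the newborn array, near background, and set against 71.6 its pnd2 mean was at least 0.92 (log2) higher. Suz12 was more than 2-fold higher, as were 17.5% of all genes. With 1 newborn array these differences have no replicate check.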

How the data were processed

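Expression was measured on 20 whole-testis arrays of 6 stages and on 1 whole-newborn array; per the labels each array holds a separate animal or pool. The values are array intensities as deposited by the authors, computed with GCOS (version not given) per the submitters' processing notes and scaled by 1 factor per array to a common trimmed mean, which assumes a similar total signal at each stage. Of 45101 probe sets, 34945 carried 1 gene symbol; those with several (932) or none were left out. No 2 arrays held identical values.

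Values were taken as log2(intensity + 22.4), the 20th percentile of testis values. Stage means were compared with limma 3.58.1 in R 4.3.3 (lmFit, eBayes with trend) on all 20 testis arrays, leaving 14 residual degrees of freedom; p-values were adjusted by Benjamini-Hochberg over the 14338 genes of a comparison, with a threshold of 0.05. Paralogs were compared by exact permutation tests. The fit was tested on simulated data.

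The members and gene lists were chosen with earlier results of these data known. Named are the 9 members and their probe sets, Ring1 and Pcgf2, the 3 called genes of each list that rose most and fell most from gd11 to pnd2, and genes of similar course; the step of Scml2 was chosen after its values were seen. Alternatives were another pseudocount, filter, normalization, probe set rule or moderation, array weights, fits by stage pair, and arrays left out.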

Additional observations from a re-analysis of the deposited data

How the results depend on the processing

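Of 54 stage changes of the Polycomb genes, 20 were called, and 9 of these kept call and direction in all settings: 12 other choices and 20 fits without 1 array each. Over the 638 values of called changes, 607 stayed called, 30 did not pass and 1 reversed, the fall of Suz12 from gd12 to gd14, which became 0.11 with the probe set of largest variance. Among changes not called, 8 of 1084 values passed.

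Counts of Polycomb genes called moved as follows. From gd14 to gd16 they were 2 with array weights and with only the arrays of the 2 stages; from gd16 to gd18, 1 with the probe set of largest variance and with the mean over probe sets; from gd18 to pnd2, 0 with no filter or quantile normalization and 2 with array weights. For the 0 counts, Cbx8 had adjusted p = 0.0540 and 0.0700 in limma. PR-DUB and PhoRC genes were 5 with either other probe set rule. Leaving out 1 array gave 4 to 5, 4 to 5, 0 to 1, 0 to 2 and 0 to 2 members in the 5 successive steps and 6 to 8 from gd11 to pnd2; 8 to 9 members varied over stages. It gave 11 to 14 PRC1, 6 to 8 PRC2 accessory, 7 to 9 PR-DUB and PhoRC and 6 to 9 Trithorax and demethylase genes. Without gd11 replicates 16 and 17, 23.2% of all genes were higher from gd11 to pnd2 and 24.0% lower. Of the PRC1 genes 6 were then higher and 6 lower, and of the PRC2 accessory genes 2 and 4. Of the PR-DUB and PhoRC genes 2 were higher and 6 lower, as of the Trithorax and demethylase genes. Of the cell cycle inhibitors 4 were higher and 2 lower, and of the meiosis entry genes 8 and none.

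Without gd11 replicates 16 and 17, Ezh1 over Ezh2 shifted by 2.12, Cbx7 over Cbx2 by 3.24, Cbx8 over Cbx2 by 1.46 and Rnf2 over Ring1 by -1.01 (exact permutation tests, adjusted p = 0.125 each, since 3 arrays against 3 cannot reach 0.05). With the probe sets of largest variance Bmi1 over Pcgf2 was -1.07 and Rnf2 over Ring1 -1.04, and with means over probe sets Rnf2 over Ring1 was -0.65. With 1 array left out, the shifts ran from 2.33 to 2.68, 2.91 to 3.43, 1.28 to 1.58 and -1.02 to -0.83 for these 4 pairs, with the call lost in 3, 3, 6 and 3 of 8 fits: for each pair without any 1 pnd2 array (adjusted p = 0.0595, the lowest that 2 arrays against 5 gave), and for Cbx8 over Cbx2 also without gd11 replicate 18, 19 or 20 (0.0714). They ran from -0.22 to 0.10 for Bmi1 over Pcgf2.

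Counts over all genes moved most for adjacent stages: from gd11 to gd12 1286 with only those arrays against 3067; from gd14 to gd16 3292 with array weights and 3020 with only those arrays against 1488; from gd16 to gd18 1880 and 1143 against 700; from gd18 to pnd2 2283 with array weights against 1118. Without gd11 replicates 16 and 17 the last 3 counts were 2368, 1265 and 1886. With 1 array left out they went down to 494, 189 and 437, that from gd11 to gd12 to 1671 and that from gd12 to gd14 to 1780 against 2681. The cause was not tested. No paired analysis was possible because replicate numbers run on through the series and no 2 stages share one.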
